A study of Sylvia borin with 20 samples.

Results

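The deubiquitinating enzymes described here are the genes whose symbol begins with USP and a digit, with OTUD or with OTUB, or is UCHL followed by a digit from 1 to 5. A total of 54 of the 20898 gene symbols in the deposited tables met this rule, of which 45 were USP genes, 3 were UCHL genes, 5 were OTUD genes and 1 was OTUB1. The rule used symbols and no measured value. Of the 54 symbols, 40 reached a mean of 0.1 FPKM (the fragments of a gene corrected for its length and for the size of the library) and were tested, 10 stayed below it with a value above 0 in some library, and 4 were listed at 0 in every library. All 54 symbols were also found in the gene table of a garden warbler genome assembly.

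Garden warblers (Sylvia borin) are songbirds that stop during migration to refuel. Whole blood of 10 wild birds caught on spring passage and kept in individual cages was sampled on day 1 in the lean state and again on day 5 in the fat state. These 20 poly(A) libraries form 10 pairs, since the same replicate number marks the lean and the fat library of 1 bird. Day of captivity and body condition changed together and cannot be told apart in this design, and no birds were sampled that did not refuel.

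Ubiquitin is a small protein that ligases attach to lysines of other proteins, singly or in chains, and the type of chain decides whether the target goes to the proteasome, to the lysosome or into a signaling complex. Deubiquitinases cut ubiquitin off again. The USP (ubiquitin-specific protease), UCH (ubiquitin C-terminal hydrolase) and OTU (ovarian tumor) families are all cysteine proteases, and they recycle ubiquitin, rescue or edit substrates and trim chains at the proteasome. In red cells that mature, ubiquitin-dependent turnover clears proteins and organelles, and avian erythrocytes keep their nucleus and make up most of the blood cells. A few symbols carry the name but not the activity: USP6NL encodes a GTPase-activating protein of Rab GTPases, and USP39 is a splicing factor that lacks deubiquitinase activity in mammals. Both were kept because the rule takes them.

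The libraries held between 0.882 and 4.71 gigabases of aligned reads, estimated by dividing coverage by FPKM. Each library was then scaled by a median-of-ratio factor, to set the typical gene expressed in all libraries to the same level, and this factor was lower in the fat library of every bird (lean 1.14 ± 0.0758, fat 0.925 ± 0.117, SD, n = 10 each). Levels below are these normalized FPKM. The lean library of bird 8 stood apart, with a median correlation of 0.837 to the other lean libraries across genes, where the other lean libraries had 0.875 to 0.910 and the fat libraries 0.906 to 0.922. It held the highest lean value for 6 and the lowest for 7 of the 31 members above 0 in every library. These counts do not set it apart by themselves, since the lean library of bird 3 also held the highest for 6. The fat library of bird 8 held the lowest fat value for 7. Because of the correlation, calls are also given without bird 8. The blood label was checked with marker genes. The summed level of 7 erythroid markers was 122606 to 187073 in lean and 166218 to 300344 in fat libraries and was higher in the fat library of all 10 birds, although none of the 7 passed in limma (2 had an unadjusted p under 0.05). The 7 matched thrombocyte markers summed to 47.9 to 130 in lean and 39.0 to 70.1 in fat libraries, and of the 6 tested 5 were lower and 1 higher, 3 of which passed as lower in limma, and all 6 with bird in the model. The white-cell markers were low. The median sum was 5.82 in lean and 2.93 in fat libraries for 6 monocyte markers, 0.658 and 0.152 for 2 heterophil markers, 1.82 and 1.15 for 5 B cell markers, and 0.0785 and 0 for 5 T cell markers. None of the 7 white-cell markers tested passed in limma without a bird term (4 had an unadjusted p under 0.05), and with it 1 monocyte, 1 heterophil and 1 B cell marker passed as lower. Of the defining genes, CD3E, CD2, CD5, CD14, MARCO, LYZ and LYG2 were listed at 0 everywhere. In whole blood, fewer cells of a type and less RNA per cell cannot be told apart, and the part of these marker differences in the results below was not tested.

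A few members carried most of the family's transcripts. OTUB1, USP7, OTUD1, USP48 and USP15 together made up 65.4% of the mean summed level of the family, and USP4 (5.23%) and USP8 (4.07%) followed in the 6th and 7th place, so that the 7 highest members made up 74.7%. FPKM is scaled per length, so that levels of different genes are set side by side here, but the effect of mapping across species was not tested. OTUB1, which cuts lysine-48-linked chains and also blocks ubiquitin-conjugating enzymes by binding them, ranged from 30.1 to 148 in lean libraries (median 96.8) and from 73.9 to 140 in fat libraries (median 123). USP7, which in mammals stabilizes the p53 ligase MDM2, ranged from 61.3 to 130 (median 93.3) and from 81.6 to 130 (median 108). These 2 genes overlapped in range with each other on both days, and their order was not fixed from library to library.

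**Figure D1:**
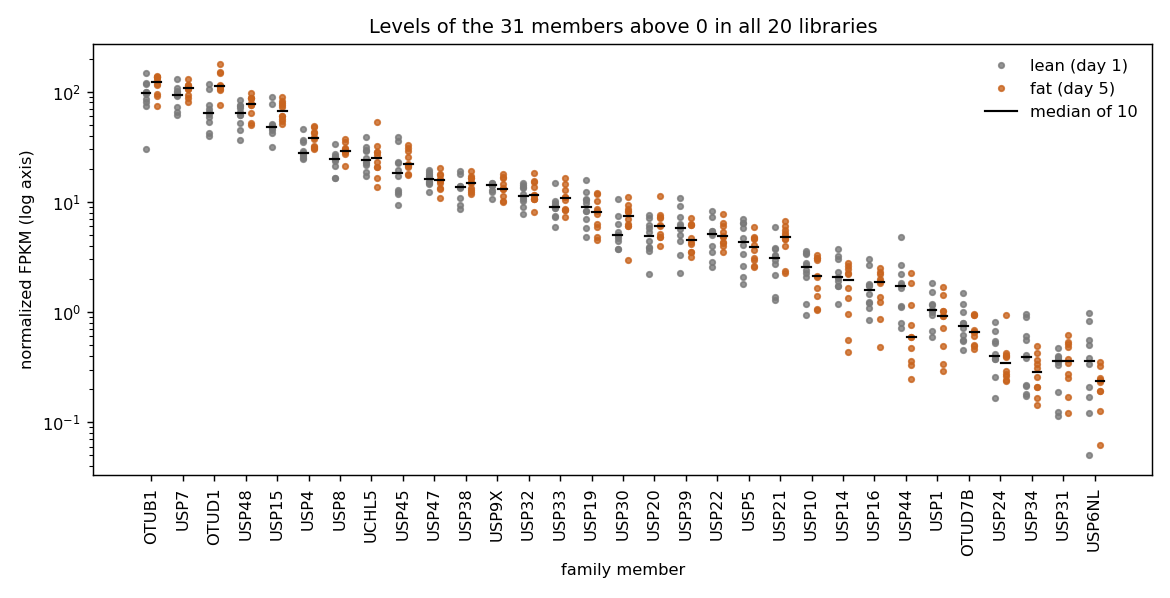
Normalized FPKM (log axis) of the 31 members above 0 in all 20 libraries, ordered by mean level, with 1 point per library (gray lean, orange fat) and a bar at the median of 10. Levels run from about those of OTUB1 (lean median 96.8) to those of USP6NL (lean median 0.360), and the lean and fat points of every member overlap.

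USP4 and USP8 stood next to each other among the members. USP4 removes ubiquitin from the type I TGF-beta receptor and acts with the recycling factor SART3 in the spliceosome, and USP8 works at endosomes, where it binds STAM and decides with it whether receptors such as the EGF receptor are degraded. In the annotation used, which is that of the zebra finch, USP4 lies on the minus strand from 13751918 to 13785653 (33736 bp) and USP8 on the minus strand of another sequence from 10465794 to 10488891 (23098 bp). USP4 was at 24.4 to 46.1 in lean libraries (median 28.0) and at 30.3 to 49.2 in fat libraries (median 38.1). The groups overlapped, bird 7 was the highest lean library and stayed high on day 5, and the fat library was the higher one in 9 of 10 birds. USP8 was at 16.6 to 33.2 in lean (median 24.5) and at 21.4 to 37.4 in fat libraries (median 29.3). It was also higher in the fat library of 9 of 10 birds, and for both genes the exception was bird 9, where USP4 went from 36.3 to 30.3 and USP8 from 33.2 to 29.7.

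In log2 terms USP4 was 0.34 higher in fat birds (SE 0.14, 95% interval 0.05 to 0.62) and USP8 was 0.33 higher (SE 0.13, interval 0.06 to 0.61). Neither passed in limma with condition as the only term, where the Benjamini-Hochberg adjusted p over the 7800 genes tested was 0.141 for USP4 and 0.135 for USP8. With bird in the limma model both passed, with an adjusted p of 0.0484 for USP4 and 0.0438 for USP8. The 95% intervals were then 0.11 to 0.56 for USP4 and 0.12 to 0.55 for USP8. With 1 bird left out in turn, these paired calls held for both genes without bird 9 and were lost without any of the other birds (up to adjusted p = 0.107 in limma for USP4 and 0.0917 for USP8), including bird 8 (0.0711 and 0.0636). The study picked USP4 and USP8 on these same samples, so that their direction here is not independent evidence. From the highest of the 40 signed log2 fold changes downward, USP4 stood 8th and USP8 9th.

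**Figure D2:**
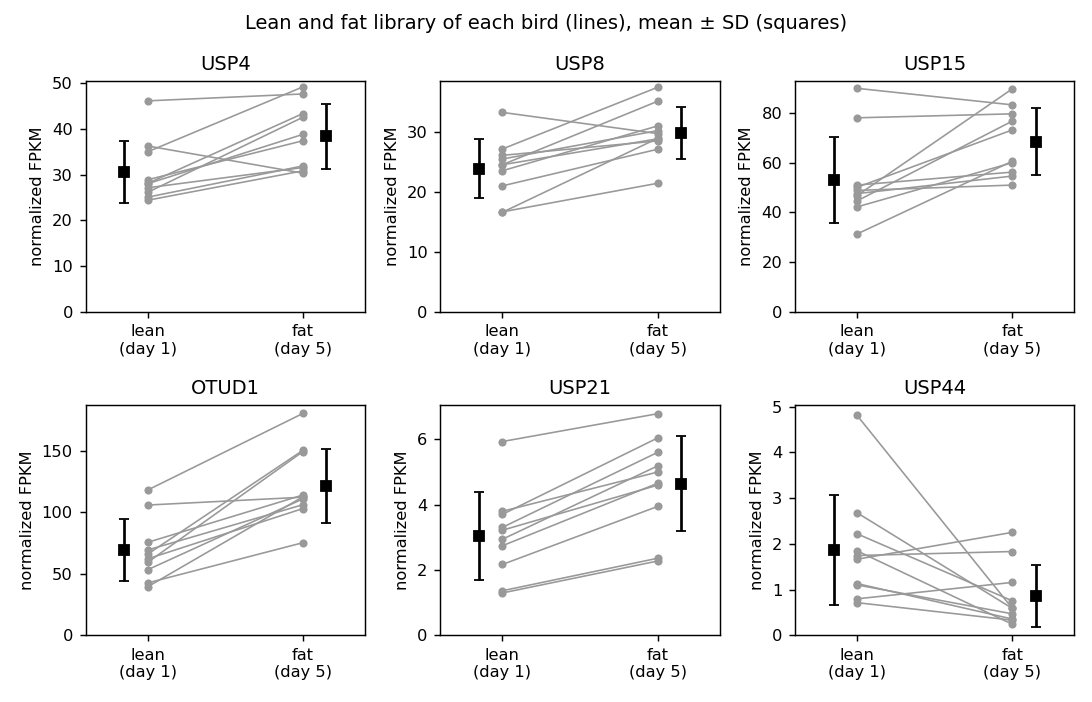
Normalized FPKM of 6 members on day 1 (lean) and day 5 (fat), with a line for each of the 10 birds and squares for the mean ± SD of each group. USP21 and OTUD1 were higher on day 5 in 10 birds, USP4, USP8 and USP15 in 9 birds and USP44 in 3 birds.

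The direction of both genes depended on the scaling of the libraries. Both lay above the median of all genes under each scaling, but FPKM, TPM and median-of-ratio values differ by a single factor per library. Such a factor moves nearly all genes alike, so that only quantile normalization could change this place much. With FPKM as deposited both were at 0.03 and with TPM (like FPKM, but scaled to the same total in each library) at −0.07 on the log2 scale, and with quantile normalization USP4 was at 0.24 and USP8 at 0.25. The median of all 7800 genes moved too, from −0.10 after median-of-ratio scaling to −0.35 with FPKM, −0.43 with TPM and 0.05 with quantile normalization. The paired calls were lost under each of the 3 other scalings (limma adjusted p 0.905 with FPKM, 0.714 with TPM and 0.160 with quantile normalization for USP4, and 0.899, 0.703 and 0.167 for USP8) and with depth added to the paired model (0.0627 and 0.0743). Relative to the median USP4 was higher by 0.43, 0.37, 0.36 and 0.19, and USP8 by 0.43, 0.37, 0.36 and 0.20, in the same order. Genes with a mean of at least 10 FPKM, the level of both, had a median of 0.16 after median-of-ratio scaling. Medians by level were not taken under the other scalings. A ratio of 2 genes within a library does not depend on any scaling factor between libraries. The log2 ratio of USP8 to USP4 was −0.35 ± 0.25 when lean and −0.35 ± 0.20 when fat (SD over 10 birds). It changed by less than 0.01 (SE 0.09), was higher in 5 birds and lower in 5, and had an exact sign-flip p of 0.998 over the 10 birds (two-sided). The ratio of USP4 to its closest relative USP15 changed by −0.07 (SE 0.11, exact p = 0.561).

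OTUD1 was the member that passed without a bird term. It encodes an OTU enzyme with a preference for lysine-63-linked chains in human cells, and its gene spans 2727 bp. OTUD1 was at 39.5 to 118 in lean libraries (median 64.2) and at 75.4 to 181 in fat libraries (median 113). It was higher in the fat library of all 10 birds, and the groups overlapped. Birds 1 and 2 were already above 100 when lean, and bird 9 was at 75.4 when fat, below bird 8 when lean (75.7). The log2 fold change was 0.85 (SE 0.19, interval 0.47 to 1.24; limma adjusted p = 0.0153, and 0.00292 with bird in the model). Genes with a mean of at least 10 FPKM had a median of 0.16 after median-of-ratio scaling. OTUD1 was 0.95 above the all-gene median after median-of-ratio scaling and 0.65 above it with quantile normalization, the scaling that is not a single factor per library. Without bird 8 the limma adjusted p was 0.0312. The call was lost without bird 10 (log2 fold change 0.78, limma adjusted p = 0.0513), with FPKM as deposited (0.54, 0.0652), with TPM (0.45, 0.130) and with the share of uniquely mapped reads as a covariate in 18 libraries (1.13, 0.357), a fit in which no gene of the 7800 passed. With bird in the model it held under all 4 scalings (limma adjusted p 0.00292 to 0.0235) and without any 1 bird.

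Of all 7800 genes, 371 (4.76%) passed in limma, with 1.49% higher and 3.27% lower in the fat state, and among the 40 members 1 passed, OTUD1. This split moved with the scaling, to 0.333% higher and 11% lower with FPKM as deposited, 0.231% and 15.7% with TPM, and 0.936% and 1.33% with quantile normalization. With bird in the model 1034 genes passed (13.3%), 404 higher (5.18%) and 630 lower (8.08%), and 6 of the 40 members did. Of these, 5 were higher (OTUD1, USP21, USP15, USP4 and USP8) and 1 was lower (USP44). With 40 members, the 6 calls are close to the share of all genes. A value higher in the fat library of all 10 birds was found for 2.15% of all genes, and among the members for OTUD1 and USP21, and 6.4% of all genes were higher in at least 9 birds, as were USP4, USP8 and USP15.

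**Figure D3:**
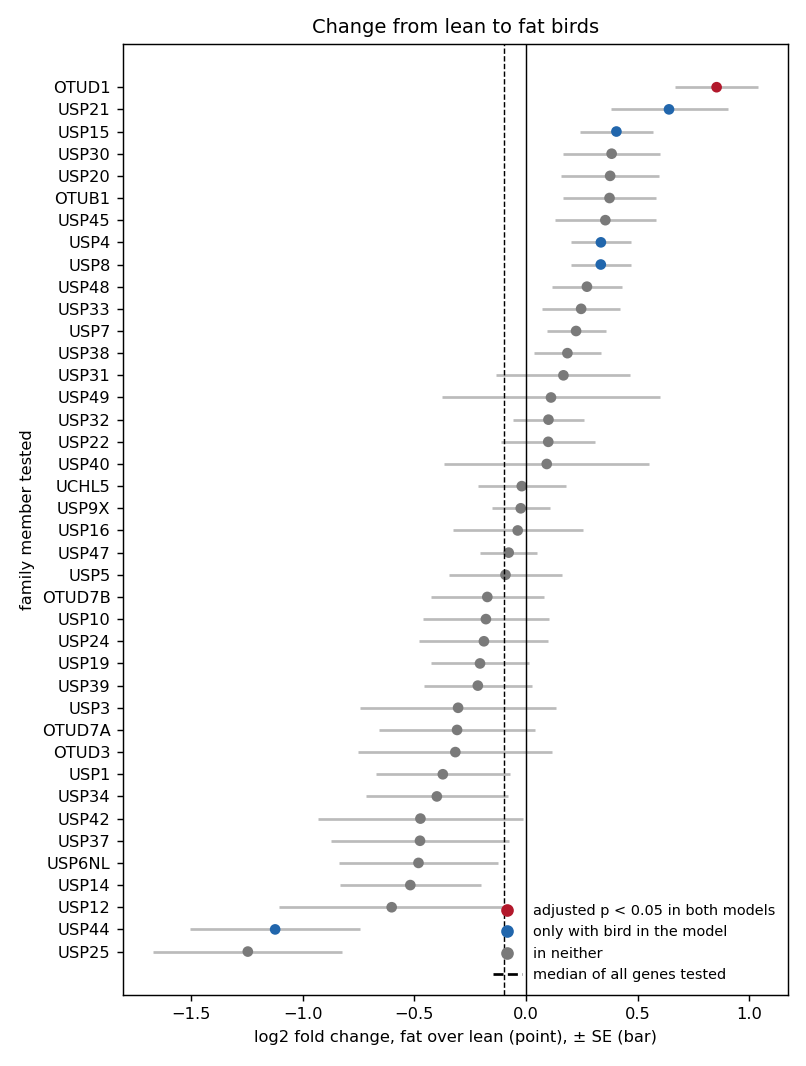
Log2 fold change of the 40 members tested (fat over lean, point) with its SE (bar), ordered by size, with the dashed line at the median of all genes (−0.10). OTUD1 (0.85) passed in both models, USP21, USP15, USP4, USP8 and USP44 with bird in the model, and USP25 (−1.25) in neither.

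Across the family as a whole, 18 of 40 members were higher and 22 lower in fat birds, with a median log2 fold change of −0.03 beside −0.10 for all genes. The members divided by level. Of the 14 members with a mean of at least 10 FPKM, 11 were higher (median 0.26), beside 68.2% of all genes of that level (median 0.16), and of the 14 members between 0.1 and 1 FPKM, 3 were higher (21.4%), beside 28.4% of all genes of that level. High members were thus mostly above and low members mostly below 0, as were other genes of their level. The summed level of the family was 447 to 680 in lean libraries (median 618) and 646 to 804 in fat libraries (median 722), and 9 of 10 birds had the higher sum when fat (exact sign-flip p = 0.00391). As a share of TPM it was 0.0738% ± 0.0102 when lean and 0.0692% ± 0.0116 when fat (SD over 10 birds), higher in 4 birds when fat (exact p = 0.277). The sum thus pointed upward on one scale and not on the other.

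USP15 and USP21 were, after OTUD1, the members with the largest positive log2 fold changes. USP15 is a close relative of USP4 and acts in TGF-beta signaling, and in human cells it opposes the ligase parkin on damaged mitochondria. USP15 was at 31.2 to 89.8 in lean (median 48.1) and 50.9 to 89.6 in fat libraries (median 66.8), with a log2 fold change of 0.40 (SE 0.16; limma adjusted p = 0.140, and 0.0451 with bird in the model). It was higher when fat in 9 birds, and birds 7 and 9 held the highest lean values. The paired call was lost without bird 8 (limma adjusted p = 0.0902) and without each other bird except 7 and 9, and it was lost under the 3 other scalings (0.635 with FPKM, 0.997 with TPM, where the log2 fold change was below 0, and 0.204 with quantile normalization).

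USP21, which removes ubiquitin from histone H2A in mammals, was lower in level. It was at 1.30 to 5.93 in lean libraries (median 3.08) and at 2.28 to 6.78 in fat libraries (median 4.82). Every bird was higher when fat, and the groups overlapped because the birds kept their order: birds 8 and 9 were the lowest and bird 10 the highest on both days. The log2 fold change was 0.64 (SE 0.26), which did not pass in limma without a bird term (adjusted p = 0.145) and passed with it (adjusted p = 0.0108). The paired call held without any 1 bird (limma adjusted p 0.0137 to 0.0261, and 0.0169 without bird 8) and with quantile normalization (0.00823), but not with FPKM (0.119) or TPM (0.234) as deposited. USP21 was 0.74 above the all-gene median after median-of-ratio scaling and 0.75 above it with quantile normalization. Genes with a mean of at least 1 FPKM had a median of 0.03 after median-of-ratio scaling. They include genes of at least 10 FPKM (median 0.16), and no median was taken for genes of 1 to 10 FPKM.

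USP44 and USP25 had the largest negative log2 fold changes. USP44 guards the mitotic checkpoint and acts on histone H2B in mammals. It was at 0.716 to 4.81 in lean (median 1.71) and 0.245 to 2.25 in fat libraries (median 0.592), and the highest lean value was that of bird 8. The groups overlapped, and 7 birds were lower when fat. The log2 fold change was −1.12 (SE 0.38), with a limma adjusted p of 0.0817 and of 0.0471 with bird in the model. The paired call was lost without bird 8 (−0.93, limma adjusted p = 0.0979) and held only without bird 3 or bird 4. Without a bird term USP44 passed with FPKM (limma adjusted p = 0.0276) and TPM (0.0184) as deposited, where 11% and 15.7% of all genes passed as lower. USP44 was lower under all 4 scalings. With quantile normalization it passed in neither model (0.209, and 0.133 with bird).

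USP25, which acts in immune signaling and at the endoplasmic reticulum, was at 0.292 to 1.42 in lean libraries (median 0.613) and at 0 to 0.624 in fat libraries (median 0.283), where 2 libraries were listed at 0. It was lower when fat in 8 birds. The log2 fold change was −1.25 (SE 0.42, limma adjusted p = 0.0824, and 0.0579 with bird in the model). USP25 passed with FPKM (limma adjusted p = 0.0263) and TPM (0.0176) as deposited, where 11% and 15.7% of all genes passed as lower. Levels of TNFAIP3 and OTULIN, given below, were also lower when fat. So were the median sums of the thrombocyte, monocyte, heterophil, B cell and T cell markers. The part of any of these cells in the values of USP44 and USP25 was not tested. After median-of-ratio scaling, genes of at least 1 FPKM, like USP44, had a median log2 fold change of 0.03. This class includes the genes of at least 10 FPKM (median 0.16), and no median was taken for genes of 1 to 10 FPKM. Genes between 0.1 and 1 FPKM, like USP25, had −0.35. Relative to the all-gene median USP44 was at −1.02 and USP25 at −1.15, and with quantile normalization at −0.89 and −1.03. At these levels a small number of reads decides a value, and the log2(FPKM + 0.1) scale understates a change.

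**Figure D4:**
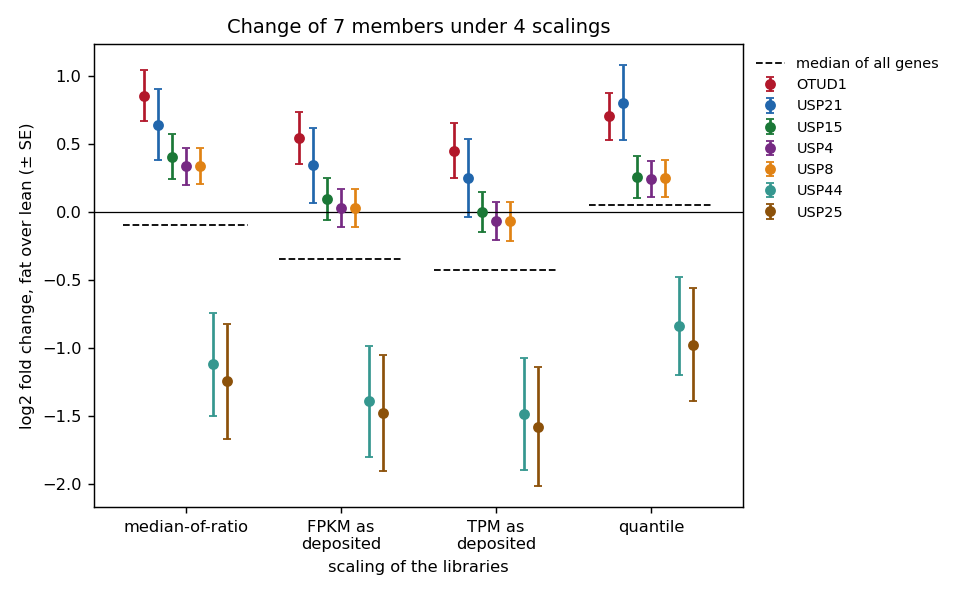
Log2 fold change (fat over lean, point) with its SE (bar) of 7 members under 4 scalings of the libraries, with the dashed line at the median of all 7800 genes under that scaling. USP4 and USP8 move from 0.34 and 0.33 to −0.07 with TPM, where the line is at −0.43. With quantile normalization they are at 0.24 and 0.25, below their median-of-ratio values, while the line is higher (0.05). OTUD1 and USP21 stay above 0 and USP44 and USP25 below 0.

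Over the 40 members, 3 were higher and 11 lower in fat birds under all 4 scalings, and 26 changed direction between scalings. The 3 higher ones were OTUD1, USP21 and USP49, the last of which was above 0 in only 2 lean and 2 fat libraries. Relative to the all-gene median, 19 members were above and 10 below under all 4 scalings. None of these counts was taken over all 7800 genes, so that they have no background here. FPKM, TPM and median-of-ratio values differ by a single factor per library, which leaves a place relative to the median nearly as it was. A mean of at least 10 FPKM was found for 14 members and for 1688 of all genes, which had a median of 0.16 after median-of-ratio scaling. The count of members called was 1 after median-of-ratio scaling, 2 with FPKM (beside 11.3% of all genes), 3 with TPM (15.9%) and 1 with quantile normalization (2.27%).

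None of the other abundant members passed in either model after median-of-ratio scaling. OTUB1 had a log2 fold change of 0.37 (SE 0.21, limma adjusted p = 0.290) and was higher when fat in 7 birds. USP7 had 0.22 (SE 0.13, limma adjusted p = 0.319), also with 7 birds. USP48, a nuclear enzyme that acts on the NF-kappaB subunit RELA in human cells, was at 36.4 to 84.9 in lean (median 64.2) and 50.4 to 97.7 in fat libraries (median 77.5), higher in 8 birds (0.27, SE 0.16). Direction depended on the scaling for all 3, which were below 0 with TPM. USP47, a relative of USP7 that acts on DNA polymerase beta in base excision repair, stayed at 12.4 to 19.6 in lean (median 16.3) and 10.7 to 20.3 in fat libraries (median 15.7), with a log2 fold change of −0.08 (interval −0.34 to 0.19). With TPM and bird in the model USP47 passed as lower (−0.48, limma adjusted p = 0.0317), beside 25.1% of all genes. The log2 ratio of USP7 to USP47 was 2.46 ± 0.40 in lean and 2.77 ± 0.38 in fat libraries and changed by 0.30 (SE 0.14), higher in 7 birds. Its exact sign-flip p of 0.0332 did not hold after adjustment over the 7 ratios run (Benjamini-Hochberg adjusted p = 0.232).

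None of 3 proteasome-bound enzymes passed in either limma model after median-of-ratio scaling, and none had an unadjusted p under 0.05. UCHL5, which docks on the proteasome through ADRM1, was at 17.1 to 38.7 in lean (median 24.1) and 13.8 to 53.2 in fat libraries (median 24.8), with a log2 fold change of −0.02 (interval −0.43 to 0.39). USP14, which trims chains on the base of the proteasome, was an order of magnitude lower, at 1.18 to 3.70 (median 2.06) and 0.437 to 2.81 (median 1.94), with −0.52 (interval −1.17 to 0.13). The log2 ratio of USP14 to UCHL5 changed by −0.50 (SE 0.35, exact sign-flip p = 0.199, higher in 4 birds). PSMD14, the metalloprotease of the proteasome lid, which lies outside the naming rule, had −0.61 (interval −1.75 to 0.54). It was at 0.531 to 1.34 in lean (median 0.749) and 0 to 1.81 in fat libraries (median 0.896), and higher when fat in 6 birds. Its fat mean (0.876) was also above the lean mean (0.852), unlike the log2 fold change, on which fat values near 0 weigh most. The 3 log2 fold changes were below 0 under all 4 scalings, and each interval after median-of-ratio scaling included 0. With TPM, USP14 passed as lower (limma adjusted p = 0.0443, and 0.0278 with bird in the model) and UCHL5 passed with bird in the model (0.0428). Of all genes 15.7% passed as lower with TPM, and 25.1% with bird in the model. The median of all genes with TPM was −0.43, beside −0.42 for UCHL5 and −0.91 for USP14.

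Among the members that sit on mitochondria or at endosomes and the endoplasmic reticulum, USP30 is anchored in the outer mitochondrial membrane, where it opposes mitophagy. USP30 was at 3.74 to 10.7 in lean (median 4.98) and 2.99 to 11.1 in fat libraries (median 7.52), higher in 8 birds (0.38, SE 0.22, limma adjusted p = 0.303). USP19, which in mammals has an isoform anchored in the endoplasmic reticulum, was at 4.85 to 15.7 (median 9.02) and 4.54 to 12.2 (median 8.03). After median-of-ratio scaling USP19, USP32 (lean median 11.4, fat median 11.5) and USP38 (higher in 8 birds, log2 fold change 0.19, SE 0.15) passed in neither model. USP19 passed as lower with TPM and bird in the model (limma adjusted p = 0.0289), beside 25.1% of all genes. USP32 and USP38 were below 0 with FPKM and TPM as deposited. USP20 and USP33, relatives that in human cells bind the VHL ligase, had log2 fold changes of 0.38 (SE 0.22) and 0.25 (SE 0.17), each higher in 8 birds, and like USP30 they were below 0 with TPM. Their ratio changed by 0.13 (SE 0.14, exact sign-flip p = 0.367).

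The histone deubiquitinases did not move as one. Of the 7 on the list, all tested, 3 were higher and 4 lower in fat birds. None passed in limma without a bird term (1 had an unadjusted p under 0.05). With bird in the model USP44 passed as lower, beside 8.08% of all genes. USP21, described above, was not on this list. USP16, which removes ubiquitin from histone H2A, was at 0.839 to 3.03 in lean (median 1.59) and 0.478 to 2.51 in fat libraries (median 1.86), with a log2 fold change of −0.04 (interval −0.64 to 0.56). USP22, the enzyme of the SAGA coactivator complex, was at 2.56 to 8.24 (median 5.11) and 3.55 to 7.78 (median 4.87), higher in 5 birds. USP45, which acts on the repair nuclease subunit ERCC1, was at 9.31 to 39.0 (median 18.3) and 17.7 to 32.7 in fat libraries, and the log2 ratio of USP16 to USP45 changed by −0.39 (SE 0.32, exact sign-flip p = 0.256). USP9X, a large enzyme with many substrates, had a median of 14.2 in lean and 13.2 in fat libraries and a log2 fold change of −0.02 (interval −0.29 to 0.25), and the ratio of USP9X to USP24 changed by 0.16 (SE 0.21, exact p = 0.471). USP9X passed as lower with TPM and bird in the model (limma adjusted p = 0.0397), beside 25.1% of all genes.

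The lowest members were near the limit of these tables. USP24 was at 0.166 to 0.818 in lean and 0.235 to 0.947 in fat libraries, and USP6NL was at 0.0502 to 0.984 and 0.0625 to 0.351. USP12, which is active only with its partners WDR48 and WDR20, was above 0 in 6 lean and 3 fat libraries, with a log2 fold change of −0.60 (SE 0.51). Of the members that were not tested, UCHL3 was above 0 in 7 lean and 7 fat libraries, USP28 in 6 and 5, USP46 in 5 and 4, USP36 in 2 and 5, USP2 in 3 and 0, USP53 in 3 and 1, OTUD6B and USP54 in 2 and 0 each, UCHL1 in 0 and 1 and USP13 in 1 and 0. USP18, which removes the ubiquitin-like ISG15 in the interferon response, was listed at 0 in all 20 libraries, as were USP35, USP43 and USP50. The number of members above 0 was 37 to 45 in lean (median 41) and 37 to 42 in fat libraries (median 38.5, exact sign-flip p = 0.0723).

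Deubiquitinases and related proteases outside the naming rule were described for comparison. Of 18 tested, 11 were higher in fat birds (median log2 fold change 0.12). None passed in limma without a bird term (5 had an unadjusted p under 0.05), beside 4.76% of all genes. With bird in the model 3 passed as higher and 2 as lower, beside 5.18% and 8.08% of all genes. TNFAIP3 (A20), which edits ubiquitin chains to end NF-kappaB signaling, was at 0.948 to 4.04 in lean (median 1.71) and 0.135 to 1.73 in fat libraries (median 0.940). It was lower when fat in all 10 birds, as were 2.14% of all genes, with a log2 fold change of −1.05 (SE 0.32, limma adjusted p = 0.0612, and 0.0261 with bird in the model). OTULIN, which cuts linear chains in the same pathway, had −1.55 (SE 0.51, limma adjusted p = 0.0759, and 0.0407 with bird in the model, a call lost without bird 8 at 0.0745). Its paired call held in 2 of 10 fits that left out 1 bird. OTULIN was at 0.157 to 2.88 in lean (median 0.437) and 0 to 0.654 in fat libraries (median 0.124), levels at which few reads decide a value. TNFAIP3 and OTULIN were the calls among the 4 deubiquitinases of the NF-kappaB pathway tested, where CYLD had a log2 fold change of 0.06 (SE 0.33). The higher ones with bird in the model were MINDY3 (0.65, limma adjusted p = 0.0291), VCPIP1 (0.42, 0.0290) and COPS5 (0.38, 0.0253), the last of which is the deneddylase of the COP9 signalosome. Without bird 8 the limma adjusted p was 0.0682 for MINDY3, 0.0510 for VCPIP1, 0.0472 for COPS5 and 0.0492 for TNFAIP3. The paired calls of MINDY3, VCPIP1 and COPS5 were lost under the 3 other scalings (limma adjusted p 0.0568 to 0.942), and COPS5 turned to −0.02 with TPM. Those of TNFAIP3 and OTULIN held with FPKM and TPM, where 18.5% and 25.1% of all genes passed as lower. With quantile normalization they were lost (limma adjusted p 0.0739 and 0.120).

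Proteins that work with deubiquitinases were mostly higher in fat birds after median-of-ratio scaling. Of 16 tested, 15 were higher (median log2 fold change 0.21), beside 6 with FPKM, 5 with TPM and 14 with quantile normalization, and 15, 15 and 12 of them lay above the all-gene median under those 3 scalings. Of all 7800 genes 43.0% were higher after median-of-ratio scaling, and of those with a mean of at least 10 FPKM 68.2%. In limma 2 of the 16 passed as higher, beside 1.49% of all genes. With bird in the model 5 passed as higher, beside 5.18% of all genes. ATXN7, the subunit that holds the deubiquitinase module in SAGA, was at 7.20 to 20.6 in lean (median 12.8) and 14.8 to 31.4 in fat libraries (median 19.5). It rose in all 10 birds by 0.69 (SE 0.18, limma adjusted p = 0.0350, 0.0477 without bird 8). UBE2D3, a ubiquitin-conjugating enzyme, was at 109 to 179 (median 135) and 147 to 218 (median 189) and rose by 0.41 (SE 0.11, limma adjusted p = 0.0389, 0.0594 without bird 8). Without a bird term both calls held in 3 of 10 fits that left out 1 bird, neither held under any other scaling, and with bird in the model both held in 10 of 10. The paired call of ATXN7 held with quantile normalization (0.0151) and was lost with FPKM (0.0712) and TPM (0.148), and that of UBE2D3 was lost with all 3 (0.527, 0.979 and 0.125 with quantile normalization, limma adjusted p). TSC1 (0.45, limma adjusted p = 0.0335), TRIP12 (0.41, 0.0415) and WDR20 (0.96, 0.0415) passed only with bird in the model, and under none of the other scalings. These paired calls were lost without bird 8 (limma adjusted p 0.0655, 0.0812 and 0.0719). They held in 2, 2 and 3 of 10 fits that left out 1 bird. UBE2D3, TSC1 and TRIP12 were chosen by the study on these samples. They are part of the counts of this list, and their direction is not independent evidence. The partners of the 2 enzymes, STAM (0.25, SE 0.27), STAM2 (0.09, SE 0.13) and HGS (0.06, SE 0.13) for USP8 and SART3 (0.06, SE 0.17) for USP4, did not pass in either model.

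Of 9 ubiquitin genes and activating enzymes tested, RPS27A was the 1 that passed in limma, beside 4.76% of all genes. RPS27A encodes ubiquitin fused to a ribosomal protein. It was at up to 318 in lean (median 152) and at 179 to 295 in fat libraries (median 260), with a log2 fold change of 0.63 (SE 0.17, limma adjusted p = 0.0407, 0.0759 without bird 8). The call held in 2 of 10 fits that left out 1 bird and under no other scaling. With bird in the model it held in 10 of 10 and with quantile normalization (0.0184), but not with FPKM (0.107) or TPM (0.226). The polyubiquitin gene UBB was at 9.90 to 45.4 (median 20.6) and 7.82 to 29.0 (median 13.1), lower when fat in 9 birds (−0.46, SE 0.27; limma adjusted p = 0.322, and 0.0424 with bird in the model, 0.0791 without bird 8). These 2 ubiquitin genes thus gave values on opposite sides of 0.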

How the data were processed

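RNA of whole blood was sequenced from 10 birds on 2 days. STAR alignment to the zebra finch genome and StringTie quantification were run by the authors, and the deposited tables give per gene the coverage, FPKM and TPM, without read counts, so that no count model was run and no counting error is given. How reads shared by related genes such as USP4 and USP15 were divided was not stated in the sources read, and the effect of mapping across species was not tested.

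FPKM was summed per symbol and scaled by median-of-ratio factors over 4487 symbols above 0 in every library, symbols averaging 0.1 or more in deposited FPKM were kept, and log2(FPKM + 0.1) was fitted with limma 3.58.1 in R 4.3.3 (trend, two-sided, Benjamini-Hochberg over 7800 symbols, threshold 0.05). Python 3.11.15 (scipy 1.17.1, pandas 2.3.3, numpy 2.4.6) served for the rest and matplotlib 3.10.9 for figures. The fit was tested on simulated data. Bird was left out of the main model because the methods of the study name no such term. The libraries of a bird are paired by sampling, and after removal of condition means they correlated at 0.152 to 0.382 across genes (different birds, median −0.0245), so that the paired values are given where they change a call. Of 13 planned ratios, the 7 with both members tested were run, by exact sign flips over 10 birds.

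Members and lists were chosen with earlier results of these data known. Named were USP4, USP8, members called, the 8 highest, the 5 largest rises and falls, members of ratios and, per list, those called and the 2 with the smallest p. USP19, USP22, USP32, USP38, USP49, MINDY3, VCPIP1, COPS5, the partners of USP4 and USP8, PSMD14, CYLD, TSC1, TRIP12 and WDR20 were added after their values were seen. Some genes of the lists are not reported here. Alternatives were pseudocounts of 0.01 and 1, other filters and scalings, bird, depth and the share of uniquely mapped reads (a published value, used as covariate in the 18 libraries with matching codes) as terms, quality weights and leaving out each bird. The fits combining bird with other scalings or left-out birds were added after the data were seen.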

Additional observations from a re-analysis of the deposited data

Results flagged for a closer look

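Among 58 groups of 10 libraries tested for the named members and the family measures, 7 held 1 library far above the others. The cutoff flags about 1 in 20 groups of normally distributed values. Levels were tested without a log, so that the number to be flagged by chance here is not known. UCHL5 was at 53.2 in the fat library of bird 5, where the next was at 32.3. USP20 was at 11.4 in the fat library of bird 3 (next 7.56), and USP33, its relative, at 14.9 in the lean library of bird 7 (next 10.3). USP30 was at 10.7 in the lean library of bird 4 (next 7.43). USP44 was at 4.81 in the lean library of bird 8, which stood apart across genes (next 2.68). USP24 was at 0.947 in the fat library of bird 2 (next 0.422), and USP12 at 0.363 in the fat library of bird 7 (next 0.157), both at levels where few reads decide a value.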

How the results depend on the processing

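The number of genes called, 371, became 120 without a filter, 882 with FPKM as deposited, 1243 with TPM, 177 with quantile normalization, 160 with depth as a covariate, 110 in the 18 libraries with matching codes and 0 with the share of uniquely mapped reads as a covariate in limma (506 at an unadjusted p under 0.05), where 0 members passed (1 at an unadjusted p under 0.05). With bird as a block (the pairing of libraries) it was 1034, with block and depth 615, and with block and FPKM, TPM or quantile normalization 1519, 2007 or 666. Members called were then 6, 2, 4, 9 and 2, against 2 with FPKM and 3 with TPM alone. The block left the log2 fold changes of USP4 (0.34) and USP8 (0.33) as they were and brought them past the threshold, which they did not reach with block and depth or with block and another scaling. The family median was −0.33 with FPKM, −0.42 with TPM, 0.12 with quantile normalization and 0.14 for a mean of at least 1 FPKM. From median-of-ratio scaling 8 members turned direction with FPKM, 15 with TPM and 11 with quantile normalization. Listed here are only those among the 22 members named by choice, call, level, change or ratio, so that the lists are not complete. With FPKM these were USP7 (−0.085), USP48 (−0.036) and USP33 (−0.060), and with TPM, USP4 (−0.070), USP8 (−0.070), OTUB1 (−0.032), USP7 (−0.18), USP48 (−0.13), USP15 (−0.00064), USP30 (−0.015), USP20 (−0.021), USP45 (−0.049) and USP33 (−0.16), with or without the block. With quantile normalization they were USP6NL (0.064), USP16 (0.19) and USP24 (0.24). Directions also turned with the uniquely mapped share for UCHL5 (0.17), USP12 (0.68), USP16 (0.081) and USP24 (0.24), and for USP16 in the 18 libraries (0.034) and with block and depth (0.0063). The cause was not tested.

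Without 1 bird, with or without the block, the count of genes was 73 (bird 10) to 1133, members called 0 to 7, the family median −0.07 to −0.01, USP4 0.29 to 0.40, USP8 0.28 to 0.39, and the ratio of USP8 to USP4 −0.051 to 0.043. UCHL5 was −0.10 to 0.033, USP16 −0.14 to 0.074 and USP9X −0.061 to 0.013. Without the block the count was at most 220 without any 1 bird except bird 4 (311) or bird 9 (400). Without the pairing none of the 7 ratios passed (adjusted p 0.619 to 0.995, permutation test). How depth bears on the detection of members below 1 FPKM was not tested.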

Other observations

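Birds kept their order between days to different degrees, which was looked at after the values were seen. Over the 31 members above 0 in every library, the lean and the fat level correlated across the 10 birds with a median Pearson r of 0.40 (lowest −0.16, highest 0.96), and 27 were above 0. USP21 had the highest, r = 0.96 (permutation p = 3e-05, Benjamini-Hochberg adjusted p over the 31 members = 0.00093) and Spearman rho = 0.88 (permutation p = 0.0017, adjusted p = 0.0521), and r was 0.88 without the 2 birds farthest from the lean median. Of the 31 members, 1 passed with Pearson's r and 0 with Spearman's rho after adjustment.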
